A study of Mus musculus with 3 samples.

Results

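The first 9 Mb of sequenced chromosome 19 next to the centromere carried one of the densest blocks of c-FOS peaks in the list. The block was taken as every peak on chromosome 19 whose start lay at or above 3 Mb and below 12 Mb on the mouse build mm9 (3000001 to 12000000). It held 332 of the 15011 listed peaks, and the other 478 peaks of chromosome 19 lay beyond it. The block was chosen by its number of listed peaks. Its density and the neighbour distances that follow from it are therefore descriptions with no test.

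The peaks came from chromatin immunoprecipitation followed by sequencing (ChIP-seq) of ASZ001, a line grown from a murine basal cell carcinoma (BCC). All 3 samples had the genotype RasV12_TGFbR1kd, an activated Ras with a knockdown of the receptor TGFbR1 by shRNA, and all received the Dox-4OHT treatment 6 days before crosslinking. Of these, 2 were c-FOS immunoprecipitates and 1 was input, which had no antibody. The deposited list names no replicate, so no value below has a spread between samples, and with 1 line in 1 condition nothing here is a change on induction. Read depth behind the peaks is unknown.

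c-FOS is a subunit of AP-1, a dimer of FOS and JUN family proteins that binds a short palindromic DNA element. It is an immediate early protein, made after growth factor and Ras-MAPK signalling, and in skin AP-1 is known for its part in the stress response, in differentiation and in squamous tumours. AP-1 sites often lie in enhancers, and several can lie close together in one regulatory region.

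Proximal mouse chromosome 19 is gene rich. The genes of interest were listed for this block with earlier results of these data known. That 33 of 33 were found on chromosome 19 in the GRCm38 gene table is therefore not a result. The 31 protein-coding ones among them could be numbered along the chromosome. Among the 705 protein-coding genes of the chromosome, counted from the centromeric end, Cpt1a (mitochondrial fatty acid import) was number 3 and Lrp5 (a Wnt co-receptor) number 7. Cst6 (a protease inhibitor of the cornified epidermis) was number 82, Fosl1 (the AP-1 subunit FRA-1) number 89 and Cfl1 (the actin-severing protein cofilin) number 95. Ovol1 (a transcription factor of epidermal differentiation) was number 98 and Rela (the p65 subunit of NF-kB) number 102. Batf2, a further AP-1 family member, was number 134, and Men1, the menin tumour suppressor, number 141. Ahnak, a giant scaffold protein, was number 217, and the desaturase genes Fads3, Fads2 and Fads1 were numbers 226 to 228. After them came 21 Ms4a genes, mostly expressed in blood cells, between numbers 255 and 276, and then 63 olfactory receptor genes between numbers 283 and 357. The table is of another build than the peaks, so this order is background only and does not place any peak at a gene.

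Peaks in the block lay at 36.9 per Mb, against 9.69 per Mb over the 49.3 Mb that follow. The ratio of these densities was 3.81 (95% limits 3.31 to 4.38, from the Wilson interval of the block's share of the peaks). Those limits hold counting error alone, as if each peak were independent, although peaks cluster. They also leave out that the block was chosen by this count, so they are no test of the ratio. Peaks covered 67.7 kb of the block, or 0.753% of it, and 0.186% of the rest of the chromosome. Among 2476 stretches of 9 Mb, taken in steps of 1 Mb over all chromosomes, 4 held more peaks, and all 4 were on chromosome 11. Neighbouring stretches overlap. Ranked without overlap, stretches of chromosome 11 came first, with 456 and 355 peaks, and then the block with 332. Stretches of chromosomes 5 and 8 followed, with 308 and 288 peaks. The median stretch held 32 peaks. The densest stretch elsewhere on chromosome 19 ran from 40000001 to 49000000 and held 205 peaks.

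Density within the block was far from even. In its 9 windows of 1 Mb, from the centromeric side, the counts were 25, 50, 94, 34, 55, 13, 28, 27 and 6 peaks. The window from 5000001 to 6000000 was thus the fullest, and the last window, from 11000001 to 12000000, the emptiest. None of the 9 windows was empty, and 7 held at least 25 peaks. In the 49 whole windows that follow, counts ran from 0 to 49 with a median of 7, 4 windows were empty and 4 held at least 25 peaks. When peaks within 10 kb of each other were merged, the windows from 4000001 and from 5000001 both held 32 regions. With merging within 1 kb the window from 5000001 stayed ahead, with 59 regions against 40. Its lead was thus lost at the 10 kb distance but not at 1 kb.

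**Figure D1:**
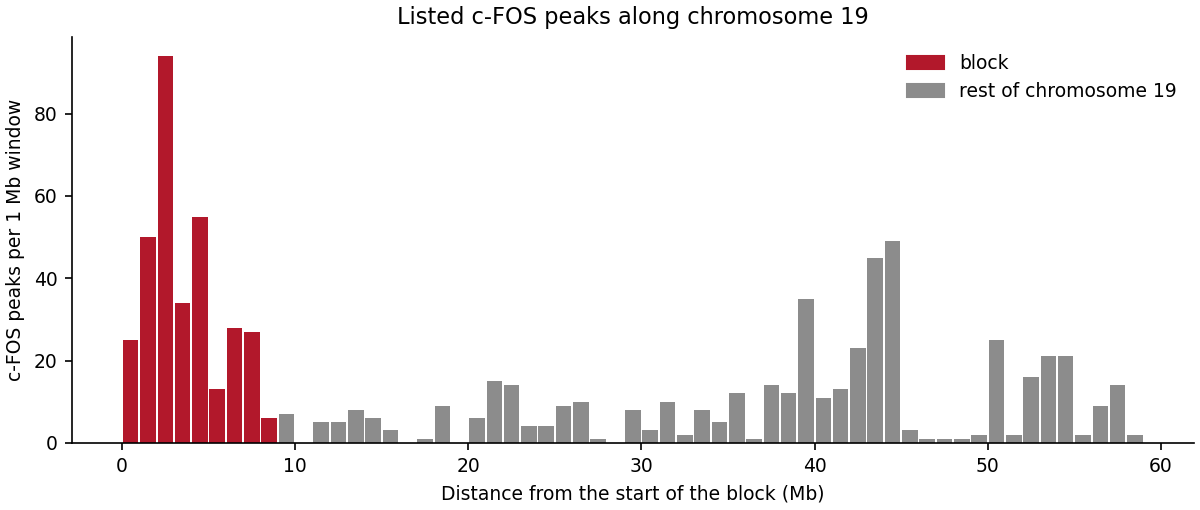
Number of listed c-FOS peaks in each 1 Mb window of chromosome 19 (y axis) against the distance from the start of the block in Mb (x axis), with the block in red and the rest of the chromosome in grey. The tallest bar is the block's window of 94 peaks, and the tallest grey bar holds 49 peaks.

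Only the distal edge of the block could be judged, as the block begins where the sequenced chromosome begins. The first peak of the block ran from 3281418 to 3281666, after 281 kb of the block without a peak. The last peak inside the limit was a lone one, from 11927841 to 11928023, and the one before it ended at 11076825. Just beyond the limit lay a pair of peaks from 12040220 to 12040502 and from 12040638 to 12041028, followed by 509 kb without a peak. The window from 12000001 held 7 peaks and the one from 13000001 none. The limit of 12 Mb thus fell in sparse sequence, after most of the dense part had ended.

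Peaks in the block fell into 4 populated segments, separated by stretches of more than 200 kb with no peak. The first segment, from 3281418 to 6601774, held 201 peaks at 60.5 per Mb, or 60.5% of the block. The next, from 6923471 to 7569470, was the most crowded for its length, with 57 peaks at 88.2 per Mb. A segment from 8776973 to 9277400 held 38 peaks at 75.9 per Mb, and one from 9949976 to 11076825 held 33 peaks at 29.3 per Mb. Together the 4 segments carried 329 of the 332 peaks on 5.59 Mb, and 3 lone peaks lay between or after them. Segment limits were drawn at the peaks themselves, so these densities are higher than those of fixed windows by construction.

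The longest stretch without a peak measured 978 kb, from 7569471 to 8547215. The others of the 3 longest ran from 11076826 to 11927840 (851 kb) and from 9499180 to 9949975 (451 kb), and the 3 together made up 25.3% of the block. The rest of the chromosome held longer ones, up to 2356 kb from 30105592 to 32461382. In all, 35.7% of the block lay within 10 kb of a peak, against 13.4% of the rest of the chromosome.

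In bins of 100 kb, 31 of the 90 bins of the block (34.4%) held no peak, against 286 of 493 bins (58.0%) beyond it. The fullest bin, from 5800001 to 5900000, held 26 peaks, and the fullest bin beyond the block held 14. The bins from 7000001 with 18 peaks, from 5700001 with 16 and from 9000001 with 15 came next. High bins therefore occurred in 3 of the populated segments and not in the fourth, where no bin held more than 9.

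**Figure D2:**
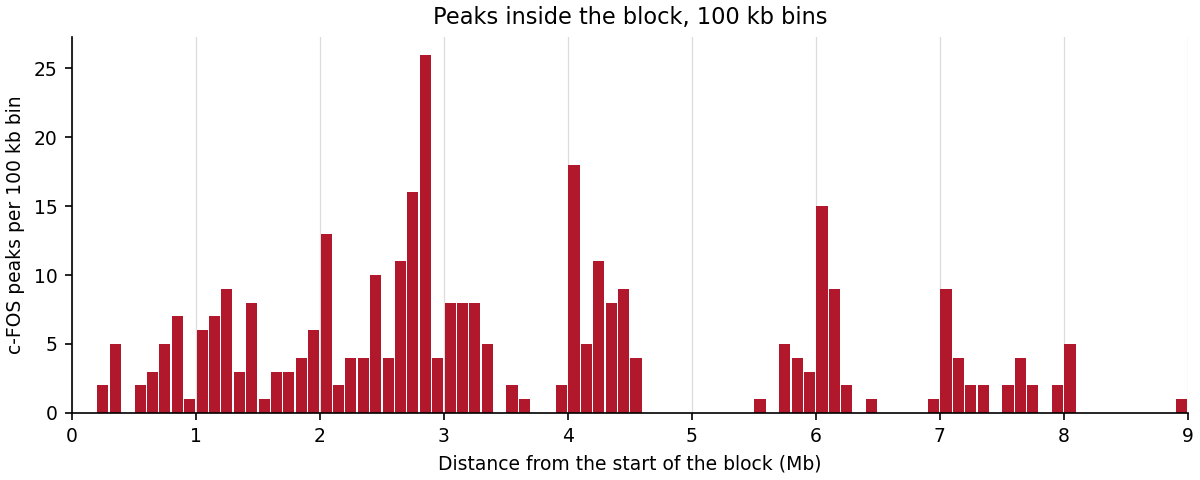
Number of c-FOS peaks in each 100 kb bin of the block (y axis) against the distance from the start of the block in Mb (x axis). The tallest bar holds 26 peaks, and 31 of the 90 bins are at 0.

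Close neighbours were common in the block. A neighbour within 1 kb was found for 153 of 332 peaks, or 46.1% (Wilson 95% interval 40.8 to 51.5%, counting error only), against a background of 24.9% over all listed peaks and 28.5% on the rest of chromosome 19 (136 of 478). Within 10 kb the count was 243 of 332 peaks, or 73.2%, against a background of 48.7% and 52.9% on the rest of the chromosome. Only 3 of 332 peaks of the block (0.904%) had no neighbour within 100 kb. The background was 11.9%, and the share on the rest of the chromosome 8.16%. The median gap between neighbours was 8.43 kb in the block and 27.8 kb beyond it. A crowded region brings peaks near each other whatever their arrangement, so the share was also set beside other windows that held at least 25 peaks, a comparison added after the values were seen. In the 7 windows of the block with at least 25 peaks, 47.6% of 313 peaks had such a neighbour. In the 119 windows with at least 25 peaks elsewhere in the list, it was 32.5% of 4372 peaks. The windows of the block were still the more crowded, with a mean of 44.7 peaks against 36.7, so crowding was not matched. Single windows elsewhere ranged from 6.90% to 62.1% and those of the block from 22.2% to 60.0%, so the ranges overlapped, and the difference was not tested.

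The share of peaks with close neighbours varied between the windows of the block. Some windows held few peaks, no interval was computed for these shares, and the differences were not tested. Close neighbours, those within 1 kb, were found for 60.0% of the peaks in the window from 7000001 and for 58.5% in that from 5000001. The share was 53.6% in the window from 9000001, which held 28 peaks. In the window from 10000001, with 27 peaks, it was 22.2%, and in the last window it was 0 of 6 peaks.

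Linking neighbours with gaps of 1 kb or less gave 44 pairs, 8 groups of 3, 6 groups of 4, 1 group of 5 and 2 groups of 6. The 17 groups of 3 or more held 65 peaks, or 19.6% of the block. On the rest of the chromosome 10 such groups held 8.37% of the peaks, and in the whole list 6.72% of peaks were in such groups. The largest group of the block had 6 peaks, while the rest of the chromosome held one of 9. Gaps of up to 1 kb had a median of 266.5 bp in the block (95% limits 214 to 351 bp, 92 gaps) and 246.5 bp beyond it (192 to 314 bp, 78 gaps), so the limits overlapped.

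The longest run in the block lay from 5794212 to 5827842, where 26 peaks followed each other with gaps of less than 10 kb. It spanned 33.6 kb, held 7.83% of the block's peaks, and 25 of its 26 peaks had a neighbour within 1 kb. By number of peaks it ranked 2 in the whole list, whose largest such run held 28. Both groups of 6 were part of it. In the first, from 5797111 to 5801377, the peaks measured 388, 331, 102, 269, 181 and 943 bp in order, so a wide peak closed the group. In the second, from 5826074 to 5827842, they measured 193, 153, 112, 180, 98 and 107 bp, with gaps of 115 to 269 bp. The second group thus held no peak wider than 193 bp and was packed into 1.77 kb, while the first spread over 4.27 kb. Between the groups, the run had its largest gap of 5807 bp, and most of its peaks still had a neighbour within 1 kb.

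The group of 5 lay far from that run, from 9062341 to 9065212. Its peaks measured 145, 333, 341, 209 and 272 bp, with gaps of 244 to 612 bp. It belonged to a run of 9 peaks from 9057367 to 9067527, in which the narrowest peak was 145 bp. Between both in position, a run of 12 peaks from 7038842 to 7064144 had peaks of 98 to 296 bp. Its peaks covered 6.72% of its length, against 21.1% of the run of 26 and 26.1% of the run of 9.

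**Figure D3:**
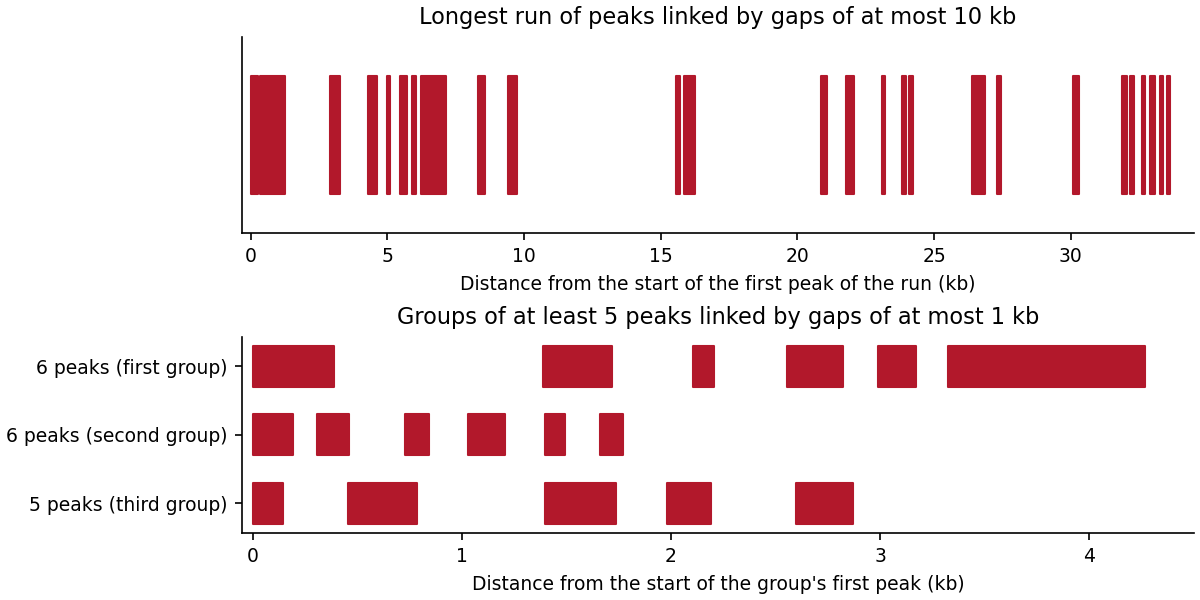
Peaks drawn to scale as red bars along the distance in kb from the first peak: above, the 26 peaks of the longest run with gaps under 10 kb, and below, the groups of at least 5 peaks with gaps of 1 kb or less. The first group of 6 ends in its widest peak of 943 bp, and the second group of 6 holds no peak wider than 193 bp.

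Peak width, which the choice of the block did not use, had overlapping limits in the block and elsewhere. The median was 163 bp in the block (95% limits 153 to 172 bp), 160 bp on the rest of chromosome 19 (153 to 166 bp) and 158 bp in the whole list (157 to 160 bp). The quartiles in the block were 122 and 233 bp. The limits come from binomial ranks, take each peak as independent and overlap. No test was made, since peaks of 1 list are not replicates.

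The narrowest and the widest peaks were also counted. The lowest width of the list, 98 bp, was shared by 43 peaks of the block, or 12.95% (Wilson 95% interval 9.76 to 17.0%), against a background of 10.7% and 8.58% on the rest of the chromosome (6.39 to 11.4%). Of the block's peaks, 12 were wider than 500 bp, or 3.61% (2.08 to 6.21%), against a background of 1.75% and 1.88% on the rest of the chromosome (0.994 to 3.54%). In both cases the interval of the block overlapped that of the rest of the chromosome. For the peaks over 500 bp it lay above that of the whole list (1.55 to 1.97%), which includes the block. These intervals hold counting error only and take each peak as independent, although peaks cluster. Neither difference was tested.

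Median widths of single windows rest on few peaks and have wide limits. The median was 259.5 bp (95% limits 158 to 297 bp) in the window from 9000001 and 114 bp (98 to 217 bp) in the neighbouring window from 8000001, which held 13 peaks. It was 144 bp (122 to 161 bp) in the window from 7000001, where 12 of 55 peaks had the lowest width. It lay between 167 and 171 bp in the windows from 3000001 to 7000000. The limits of the windows from 8000001 and 9000001 overlapped. Peaks of the block with a neighbour within 1 kb had a median of 171 bp (155 to 198 bp) and those without one 156 bp (146 to 170 bp), and the limits overlapped. In the whole list, with many more peaks, the medians were 167 bp (164 to 171 bp) and 156 bp (154 to 157 bp), and the limits did not overlap. All these limits take each peak as independent, although close peaks come in groups, and the differences were not tested.

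**Figure D4:**
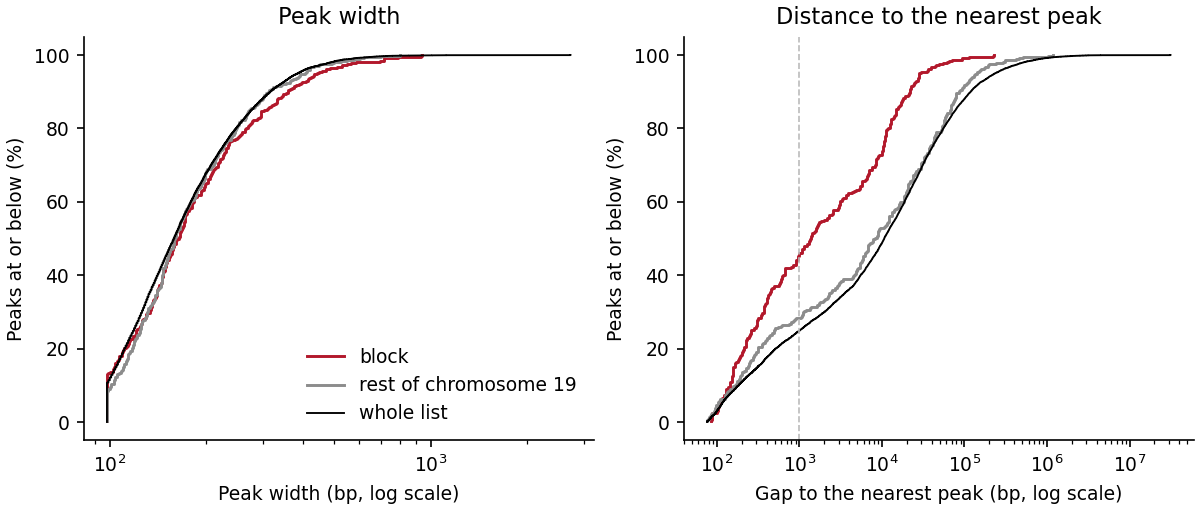
Cumulative share of peaks in percent (y axis) by width in bp (left) and by gap to the nearest peak in bp (right), both on log axes, for the block (red), the rest of chromosome 19 (grey) and the whole list (black); the dashed line marks 1 kb. The width curves lie close together, with medians of 163, 160 and 158 bp, while at 1 kb the gap curve of the block has reached 46.1% and that of the rest 28.5%.

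The widest peak of the block, from 5800435 to 5801377, measured 943 bp, and the next, from 5794552 to 5795482, measured 931 bp. Both were in the run of 26 peaks, with a neighbour 154 and 85 bp away. The third, from 6060905 to 6061694, measured 790 bp, with its nearest neighbour 3020 bp away. A peak of 718 bp started at 5560421 and one of 696 bp at 5636983. The peak of 713 bp from 10679811 to 10680523 stood alone, with 27.9 kb to its nearest neighbour. The others measured 586 bp (start 3851579), 566 bp (5488202), 549 bp (10969495) and, with equal width, 531 bp (4214248 and 5567401). Of these 11 peaks, 6 lay in the window from 5000001, which held 94 of the block's 332 peaks. A neighbour within 1 kb was found for 6 of the 11, where the share over all peaks of the block was 46.1% (153 of 332). Neither count was tested. Wide peaks therefore occurred both inside groups and on their own. Between 6061694 and 10679811 lay none of these 11, but the one further peak of the block over 500 bp did, from 8945926 to 8946437 (512 bp).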

How the data were processed

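The submitters' processing notes name Bowtie2, MACS2 and the build mm9; the series text gives alignment and peak calling as their roles. Their versions and settings, and how the authors joined both ChIP samples into 1 list, are not given in the sources here. The deposited values used were the start and end of each peak, in 3 columns with no score, so depth, peak strength and a stricter score threshold were not analysed here. Samples were grouped by their titles. Starts were counted from 0 in the file and are printed 1-based.

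Chromosome lengths of mm9 came from GenomeInfoDb 1.38.1 (R 4.3.3), and 0 peaks lay beyond them. Assembled length was used, gaps included. Gene order came from the RefSeq table of GRCm38, used for names and their order alone. With no mm9 sequence or annotation used here, no peak sequence, motif or gene distance is given, and the planned analyses of start sites and motifs were not run. Counts, widths and gaps were computed with scipy 1.17.1, pandas 2.3.3 and numpy 2.4.6 under Python 3.11.15, and figures were drawn with matplotlib 3.10.9. The functions for peak counts, close neighbours, linked groups, covered length and the density ratio were checked on a simulated list of 90 peaks. There, 7 of 7 values matched those planted or recomputed from the list. The limits of medians and shares were not checked in this way. Wilson 95% intervals are given for some shares of peaks only, and shares of single windows, bins and groups carry none.

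Named items follow a rule: the 10 widest peaks with ties, groups of 5 or more peaks, the 3 longest empty stretches, the edges and the 1 Mb windows. The block, the gene lists and this rule were chosen with earlier results of these data known. Segments, runs linked at 10 kb and the other windows of at least 25 peaks were chosen after their values were seen. The alternatives were merging of peaks, the wider peaks alone, other limits of the block, and the block without its densest window or longest run.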

Additional observations from a re-analysis of the deposited data

How the results depend on the processing

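With 1 list there was no replicate to leave out. No paired analysis was possible because the result comes from no test and the list carries no replicate numbers. The 6 main values of the block were recomputed under 45 alternatives, of which 25 stayed within the limits of the main value (or within 1.5 times a count). The density ratio against the rest of the chromosome, 3.81, was 3.29 with peaks merged within 1000 bp, 2.76 with merging within 10 kb and 3.07 without the densest window. The median width of 163 bp was 190 bp and 300.0 bp with merging within 1000 bp and 10 kb, and 230.5 bp when only peaks wider than the list's median of 158 bp were kept, as that selection makes it. The share with a neighbour within 1 kb, 46.1%, was 37.8% among those wider peaks, and 37.0% and 55.1% with the distance set to 500 bp and 2 kb. By construction it was 0% after either merging. The share at the lowest width, 12.95%, was 7.59% after merging within 10 kb and by construction 0% among the wider peaks. The 17 groups of 3 or more became 0 after either merging by construction, 2 among the wider peaks and 11 without the densest window. The share of the block within 10 kb of a peak, 35.7%, was 23.0% with the wider peaks, 39.0% with the block ending at 11 Mb and 31.6% without the densest window. By construction neither merging could change it, although both are counted among the 25. The limits of this share took pieces of 10 kb as independent. Without the run of 26 peaks the share with a neighbour within 1 kb was 41.8% and the density ratio 3.51. In windows elsewhere with at least 20 or 30 peaks, the share with a neighbour within 1 kb was 30.9% and 34.1%, against 32.5% at 25. Merging within 1000 bp widened 4 of the 11 named wide peaks by more than 1.5 times. The unknown depth limits what a stretch without peaks can show.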
